A study of Mus musculus with 2 samples.

Results

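The genes described here are 9 enzymes of the mevalonate pathway, Acat2, Hmgcs1, Mvk, Pmvk, Mvd, Idi1, Fdps, Ggps1 and Fdft1, measured by RNA-seq in primary mouse fibro-adipogenic progenitors (FAPs). They were chosen by gene name, as enzymes on the route from acetyl-CoA to farnesyl diphosphate, geranylgeranyl diphosphate and squalene. All 9 were found among the 44291 genes listed for each library, and all 9 reached a mean of at least 1 FPKM over the 2 libraries, as did 13401 genes in all. FPKM here are reads scaled to exon length and to the reads assigned in the library, so levels of different genes are compared per length.

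FAPs are stromal cells of muscle from which adipocytes can form. In the study, which used C57BL/6 mice, WT FAPs sorted from hind limb muscle received platelet-rich plasma (PRP) or vehicle as control. Both groups were then kept in adipogenic induction medium, which held insulin (10 µg/ml), dexamethasone (0.25 µM), IBMX (0.5 mM) and FBS (20%). Each group had 1 library. PRP is the name on the labels, but the study's own text speaks of exosomes from PRP of young donors for the sequenced cells, and the length of the culture is not given in the labels. With 1 library per group there is no replicate check, so no difference below carries a test. The 95% intervals of PRP to control ratios are exact (Clopper-Pearson). For a change in the level of a gene relative to another gene, they are conditional intervals of an odds ratio. All cover counting error only, not the spread between cultures or animals. In bulk RNA, fewer cells of a type and less RNA per cell cannot be told apart.

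The mevalonate pathway builds isoprenoid units from acetyl-CoA in the cytosol, the endoplasmic reticulum and peroxisomes. Its trunk ends at farnesyl diphosphate, from which squalene leads to cholesterol, while geranylgeranyl diphosphate and farnesyl diphosphate serve as lipid anchors for small GTPases and as precursors of dolichol and ubiquinone. Most genes of the pathway are known targets of SREBP-2, a transcription factor held back when membranes are rich in sterol.

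The enzymes were lower in the PRP library, with 1 exception. Of the 9 genes, 8 had 25.8% to 49.2% of the control level, and for each of these 8 the counting interval of the ratio lay below 1. Idi1 was the lowest relative to control, at 0.258 of the control level, and the geranylgeranyl diphosphate synthase Ggps1 was level between the libraries, at 1.02. On the log2(FPKM + 1) scale, PRP minus control, the median of the 9 was -1.11, against a median of 0.01 over the 13401 genes. At least 2-fold lower on that scale were 6 of the 9 enzymes, and 111 of all genes, or 0.828%. None of the 9 was at least 2-fold higher, as were 2.00% of all genes. Lower by any amount were 49.1% of all 13401 genes, the share to set beside each count of lower genes. An interval below 1 was common, since 26.1% of the 12369 genes with whole read numbers in both libraries had one.

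The libraries held 40120843 (PRP) and 34139741 (control) reads assigned to genes, as worked out from the FPKM values. The defining genes of FAPs were present in both, with Pdgfra at 19.8 and 28.0 FPKM and Ly6a at 59.9 and 66.4 FPKM (PRP first, as in every pair of FPKM values). The 7 progenitor markers were all lower in the PRP library, against 49.1% of all genes, and their sum was 206 against 301 FPKM. Of the 5 adipocyte markers, Adipoq had 5.49 and 5.22 FPKM and Plin1 1.73 and 2.10 FPKM, and the other 3 were under the filter. Of 5 leukocyte markers only Cd68 passed the filter (4.56 and 2.31 FPKM), while the pan-leukocyte gene Ptprc had 0.011 and 0.019 FPKM. Among 4 endothelial markers Kdr (4.23 FPKM with PRP, 2.82 times the control level) and Tek (4.73 and 3.56 FPKM) passed, with Pecam1 at 0.188 and 0.047 FPKM. No platelet or erythroid marker passed, and Pax7 and Myog of the myogenic list were at 0, although Acta1 had 15.1 and 11.1 FPKM. Of 5 genes of cycling cells 4 were lower in the PRP library, among them Mki67 with 22.6 against 39.2 FPKM, and their sum was 80.7 against 112.2 FPKM. Mitochondrially encoded genes took 2.06% (PRP) and 3.70% (control) of all FPKM. The part of these differences in the values of the enzymes was not tested.

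Stretches of genomic sequence in front of 3 of the genes are given first, because they hold the motifs to which the values can be set. Sequence came from RefSeq (GRCm38.p6), whose promoter table holds windows of 300 bases, 250 before and 50 after the annotated start, for 7 of the 9 genes, Fdps and Fdft1 being the other ones. In each line, capitals mark matches on either strand to TCACNCCAC (a core of the sterol regulatory element), CCAAT (the box bound by NF-Y) or GGGCGG (a GC box bound by Sp1). The first is upstream of Hmgcs1 (chr13:119690101-119690350, plus strand), the only member window with the sterol element core. The next is the stretch between the starts of Mvk and its divergent neighbour Mmab (chr5:114444061-114444268, plus strand, which is the direction of Mvk). The last is upstream of Mvd (chr8:122443423-122443672, minus strand).
Hmgcs1: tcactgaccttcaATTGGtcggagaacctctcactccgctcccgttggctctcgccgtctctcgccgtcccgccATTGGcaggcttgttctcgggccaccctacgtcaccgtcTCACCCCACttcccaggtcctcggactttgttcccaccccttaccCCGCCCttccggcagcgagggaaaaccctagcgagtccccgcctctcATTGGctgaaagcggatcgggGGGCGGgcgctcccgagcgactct
Mvk and Mmab: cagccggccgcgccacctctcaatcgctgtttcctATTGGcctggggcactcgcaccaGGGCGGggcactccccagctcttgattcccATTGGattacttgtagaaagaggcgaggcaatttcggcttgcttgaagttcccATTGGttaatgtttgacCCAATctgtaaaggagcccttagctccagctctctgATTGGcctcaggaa
Mvd: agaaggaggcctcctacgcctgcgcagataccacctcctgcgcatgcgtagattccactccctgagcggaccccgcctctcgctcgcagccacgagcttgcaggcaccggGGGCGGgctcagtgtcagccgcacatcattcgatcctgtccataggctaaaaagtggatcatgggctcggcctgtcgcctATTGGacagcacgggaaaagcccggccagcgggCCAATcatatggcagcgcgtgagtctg

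The sterol element core was found in 1 of the 7 enzymes with a window, Hmgcs1, where its first base lay at position -137 from the annotated start. Of all 27025 genes with windows, 1.44% held it. The CCAAT box was in 6 of the 7, all but Acat2, against 41.1% of all genes. GC boxes were in 5 of the 7, all but Pmvk and Ggps1, against 38.2% of all genes. None of these motifs contains another. Ggps1, the gene that was level between the libraries, had 3 CCAAT boxes, more than Acat2, Pmvk, Mvd and Idi1. A match is a description of letters, and the absence of one says only that these letters are not in this window.

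**Figure D1:**
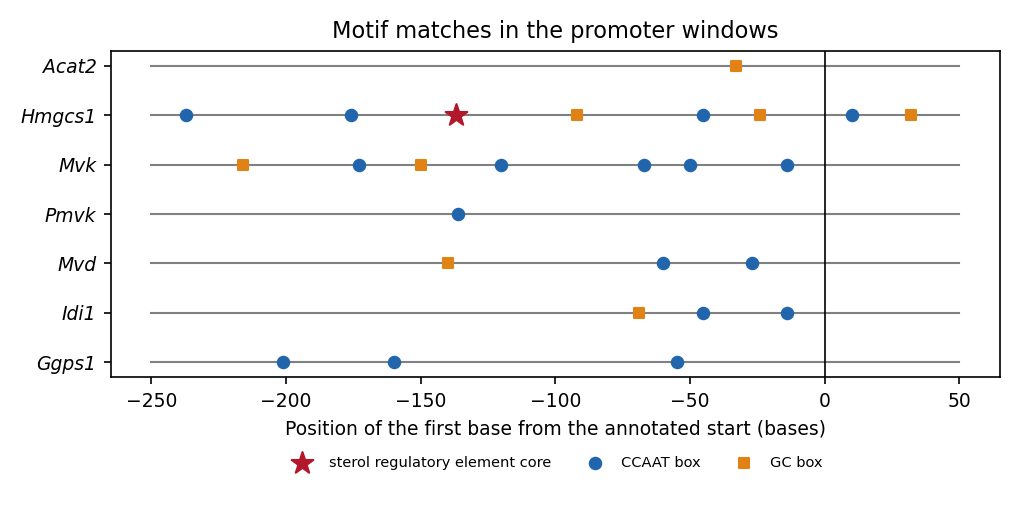
Positions of motif matches on either strand in the promoter windows of the 7 enzymes with a RefSeq window, in bases from the annotated start (vertical line), 1 row per gene in pathway order. For Pmvk, which has 2 windows, the upstream one is drawn, as the other holds no match. The star marks the single sterol element core, in Hmgcs1 at position -137.

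The pathway starts with Acat2, the cytosolic thiolase that joins acetyl-CoA units (ENSMUSG00000023832, chr17:12942890-12960747, minus strand, GRCm38). It had 4.72 FPKM with PRP and 13.2 FPKM without, a ratio of 0.357 (95% interval 0.306 to 0.416). This placed it 42nd from the lowest of the 13401 genes, with a log2 difference of -1.31. The value rested on 241 and 574 fragments, which are few for this group of genes, and Acat2 shares sequence with a paralog described further down.

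Hmgcs1, the cytosolic HMG-CoA synthase (ENSMUSG00000093930, chr13:119690379-119708260, plus strand), was the most abundant of the 9 in both libraries. Its levels were 23.2 FPKM (PRP) and 59.1 FPKM (control), a ratio of 0.393 (0.373 to 0.414). Being so abundant, it made up 24.0% of the fall in the summed level of the 9 genes. The ratio rested on 2140 and 4632 fragments, and its interval was the narrowest of the group in relative terms.

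The mevalonate kinase Mvk (ENSMUSG00000041939, chr5:114444269-114460591, plus strand) phosphorylates mevalonate. It was the least abundant enzyme in both libraries, at 4.46 FPKM with PRP and 9.23 FPKM in the control, a ratio of 0.484 (0.410 to 0.568). The interval includes 0.5, and the log2 difference was -0.91, short of 2-fold. Pmvk, which adds the next phosphate (ENSMUSG00000027952, chr3:89454541-89469013, plus strand), had 16.0 and 35.7 FPKM, a ratio of 0.449 (0.404 to 0.498). Its log2 difference of -1.11 was the median of the 9.

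Mvd, the decarboxylase that yields isopentenyl diphosphate (ENSMUSG00000006517, chr8:122433601-122443422, minus strand), had 12.3 FPKM with PRP against 35.6 FPKM in the control. The ratio was 0.346 (0.310 to 0.386), with a log2 difference of -1.46, 28th from the lowest of all genes. Idi1, which interconverts isopentenyl and dimethylallyl diphosphate (ENSMUSG00000058258, chr13:8885501-8892451, plus strand), showed the largest difference of the 9. It had 7.31 FPKM with PRP and 28.4 FPKM in the control, a level 3.88-fold lower (3.51 to 4.29). Its log2 difference of -1.82 was 10th from the lowest of all genes.

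Fdps, which condenses the units to farnesyl diphosphate (ENSMUSG00000059743, chr3:89093588-89101959, minus strand), had 17.4 FPKM with PRP and 36.4 FPKM in the control, a ratio of 0.478 (0.448 to 0.509). Fdft1, squalene synthase, which commits farnesyl diphosphate to sterols (ENSMUSG00000021273, chr14:63145150-63179578, minus strand), had 16.9 and 34.3 FPKM, a ratio of 0.492 (0.448 to 0.541). The read numbers behind Fdft1 are not whole with the exon length of the annotation used here, so the interval rests on the smallest whole read numbers that give both values, 1392 and 2407. Ggps1, which extends farnesyl to geranylgeranyl diphosphate (ENSMUSG00000021302, chr13:14050659-14063488, minus strand), had 10.4 FPKM with PRP and 10.2 FPKM in the control. Its ratio of 1.02 (0.932 to 1.12) was 7122nd from the lowest of 13401, near the middle of all genes.

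**Figure D2:**
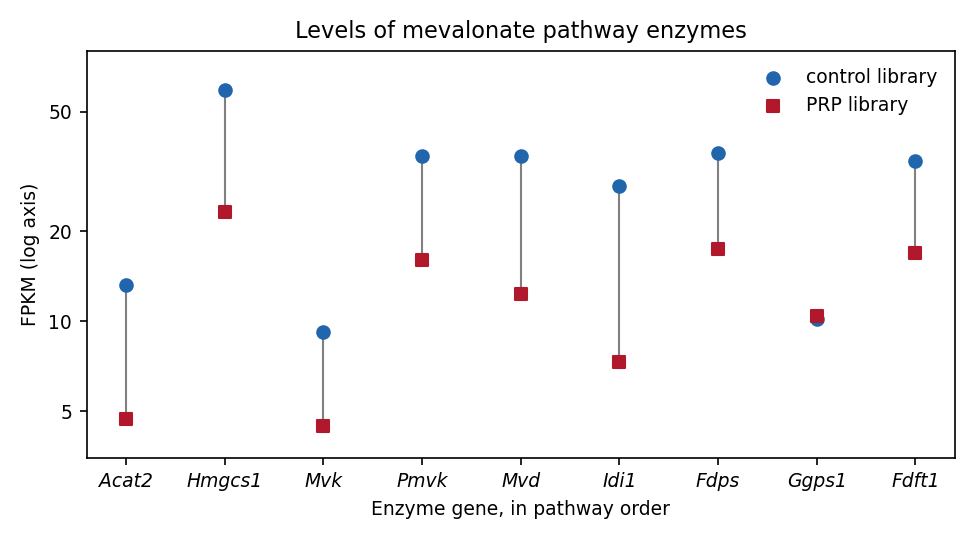
Levels of the 9 enzymes in FPKM (log axis), in pathway order, in the control library (circles) and the PRP library (squares), 1 library per group. The square lies below the circle for 8 enzymes, and the symbols overlap for Ggps1 at 10.4 and 10.2 FPKM.

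**Figure D3:**
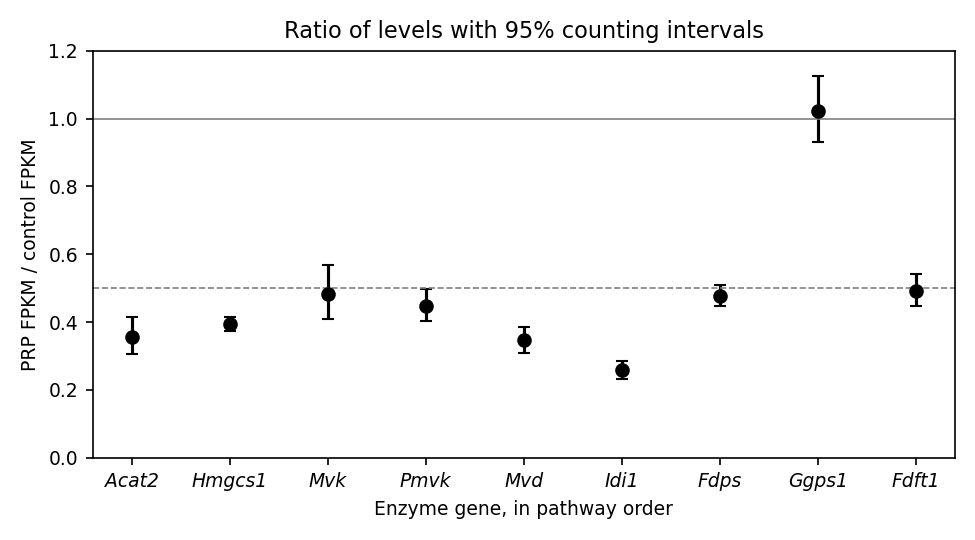
Ratio of PRP to control FPKM for each enzyme, with 95% counting intervals; lines mark a ratio of 1 (solid) and of 0.5 (dashed). Idi1 is lowest at 0.258, and only the interval of Ggps1 includes 1.

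Ggps1 held a different place among the enzymes in each library. It was 8th of the 9 by level in the control library and 6th in the PRP library, above Idi1 and Acat2, and its share of the summed FPKM of the 9 enzymes was 3.89% in the control and 9.27% with PRP. The ratio of Ggps1 to Fdps within a library was 0.281 in the control and 0.601 with PRP, a change of 2.14 (1.91 to 2.40), while that of Fdft1 to Fdps was 0.942 in the control and 0.970 with PRP, a change of 1.03 (0.919 to 1.16). The ratio of Fdft1, the branch to sterols, to Ggps1, the branch to geranylgeranyl diphosphate, was 3.36 in the control and 1.61 with PRP. Relative to Ggps1, each of the other 8 had a change between 0.252 (Idi1) and 0.481 (Fdft1), with every upper limit below 1.

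Among the steps, the differences were not equal in size. Idi1 relative to Mvd was 0.797 in the control and 0.593 with PRP, a change of 0.746 (0.642 to 0.866), and Fdps relative to Idi1 had a change of 1.85 (1.64 to 2.09). Mvd relative to Pmvk had a change of 0.771 (0.662 to 0.898). Mvk relative to Hmgcs1 had a change of 1.23 (1.04 to 1.46). Pmvk relative to Mvk (0.929, 0.765 to 1.13) and Hmgcs1 relative to Acat2 (1.10, 0.937 to 1.30) could not be told apart from no change at this depth. Mvd and Idi1, which make and isomerise isopentenyl diphosphate, thus had lower ratios than Pmvk before them and Fdps after them, beyond counting error. The ratio of Acat2, 0.357, was close to that of Mvd, 0.346.

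The order of the levels was much the same in the libraries, with a Spearman rho of 0.9 over the 9 genes, which is a description, since both orders share the same genes and lengths. In the control library, Hmgcs1 stood clear of Fdps (1.62-fold, 1.55 to 1.70). Fdps, Pmvk, Mvd and Fdft1 followed at 34.3 to 36.4 FPKM, with no neighbours among them differing beyond counting error. Idi1, Acat2 and Ggps1 came next, each differing from the one above beyond counting error, while Ggps1 and Mvk did not. In the PRP library, Hmgcs1 was 1.34-fold (1.25 to 1.43) above Fdps, and Fdps, Fdft1 and Pmvk did not differ in turn beyond counting error. Mvd, Ggps1, Idi1 and Acat2 followed in steps beyond counting error, while the step from Acat2 to Mvk was within it. The highest was 6.40 times the lowest in the control library and 5.20 times in the PRP library. Over the 8 enzymes other than Ggps1, the control level and the size of the log2 ratio had a Spearman rho of 0. The summed level of the 9 was 112.8 FPKM with PRP and 262.0 FPKM in the control, a ratio of 0.430.

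**Figure D4:**
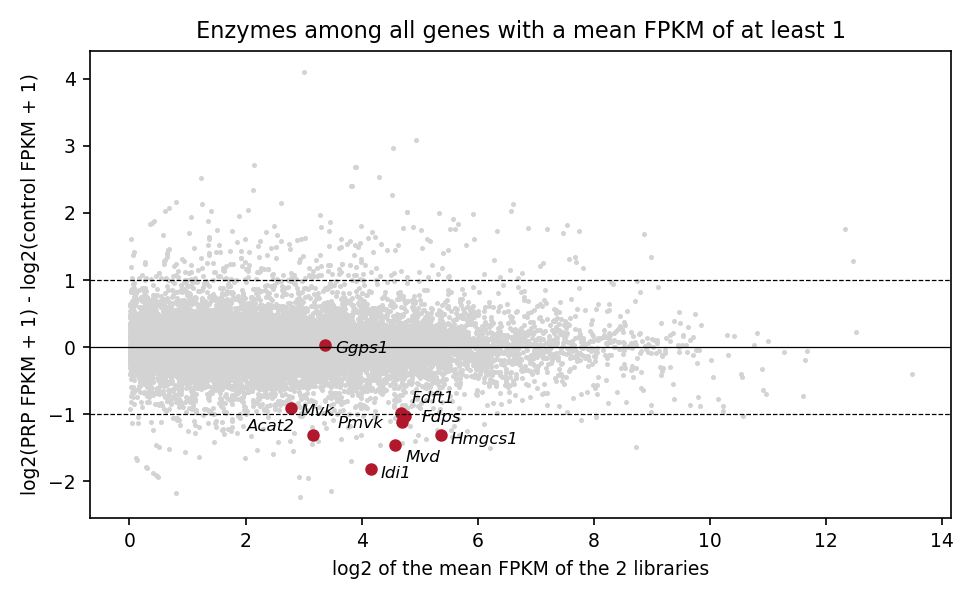
Difference of log2(FPKM + 1), PRP minus control, against the log2 of the mean FPKM of the 2 libraries for all 13401 genes with a mean of at least 1 FPKM (grey) and the 9 enzymes (red). Dashed lines mark 2-fold. Of the enzymes, 8 lie at the lower edge of the cloud, and Ggps1 lies near 0.

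Several of the genes share sequence with others, which limits how far their reads are their own. Acat2 is 97.7% identical over 1477 bases to Acat3, a neighbouring paralog gene, and Acat3 had 11.4 FPKM with PRP and 13.6 FPKM in the control, a ratio of 0.839 (0.745 to 0.945). Relative to Acat2, Acat3 had a change of 2.35 (1.93 to 2.86), and with the reads of both summed the ratio was 0.595 (0.543 to 0.652). Acat2 also shares 445 bases, at 98.7% identity, with Tcp1, a chaperonin subunit gene that had 64.0 FPKM with PRP and 78.4 FPKM in the control. Idi1 has a processed copy, Idi1-ps1, that is 100% identical over 684 bases, and this row had 3.46 and 18.8 FPKM, a ratio of 0.185 (0.130 to 0.251). Reads of Idi1 and the copy summed gave 0.249 (0.226 to 0.274). The processed copies of Fdps with a value reached at most 0.894 FPKM with PRP and 2.16 FPKM in the control, and the single copies of Ggps1 and Fdft1 were at or under 0.377 FPKM. Mvk, Pmvk and Mvd share exons or sequence with no other gene by these criteria, and their log2 differences were -0.91, -1.11 and -1.46.

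Some exons also overlap genes on the other strand. The kit marks strand, and whether the counting used it is not given in the sources used here. The antisense gene Gm48342 lies opposite 12.1% of the Hmgcs1 exon length, and it had 26.5 FPKM with PRP and 68.2 FPKM in the control. Fdft1 shares 18.3% of its exon length with the opposite gene Ctsb, cathepsin B, which had 186 and 159 FPKM, and Ggps1 shares 5.44% with Arid4b, which had 14.1 and 14.4 FPKM. Without strand, reads from such pairs cannot be told apart. Fdps shares 26.7% of its exon length with a longer annotated gene on the same strand, Gm43738, not analysed here.

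Neighbouring genes gave a measure of what lay around the enzymes. Mmab, which makes the cobalamin cofactor of methylmalonyl-CoA mutase, starts 209 bases from Mvk on the other strand, and the CCAAT and GC boxes of the sequence shown for Mvk lie between the starts of both. It had 11.6 FPKM with PRP and 22.0 FPKM in the control, a ratio of 0.527 (0.483 to 0.574), and relative to Mvk its change was 1.09 (0.907 to 1.31). Hmgcs1, Mvd and Fdps had no neighbouring gene that passed the filter. Of the 8 next genes on either side of the other enzymes that passed it, the 7 other than Mmab had log2 differences between -0.23 (Acat3) and 0.22 (Ctsb). Among these, Pbxip1 beside Pmvk had 56.0 and 55.2 FPKM, and Wdr37, which starts 13592 bases from Idi1 and runs the other way, had 1.16 and 1.22 FPKM.

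Enzymes of the later steps of sterol synthesis were lower in the PRP library too. Of the 11 enzymes from squalene to cholesterol, 9 passed the filter and all 9 were lower, against 49.1% of all genes. On the log2(FPKM + 1) scale the median difference was -0.98, and 4 were at least 2-fold lower. Among those were the lanosterol demethylase Cyp51 (17.5 against 45.0 FPKM, -1.31), Nsdhl (3.76 against 10.5 FPKM, -1.27) and squalene epoxidase Sqle (6.97 against 15.9 FPKM, -1.08). Ebp, the sterol isomerase, was the least different, at 16.0 and 19.3 FPKM. Upstream of the pathway, the citrate carrier Slc25a1 (10.9 against 20.5 FPKM, ratio 0.534, 0.475 to 0.599) and ATP citrate lyase Acly (23.3 against 42.1 FPKM, ratio 0.553, 0.525 to 0.582), which supply cytosolic acetyl-CoA from citrate, were lower. Acss2, which makes acetyl-CoA from acetate, had 2.15 and 2.10 FPKM. The median of these 3 was -0.83.

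Genes that run related chemistry elsewhere in the cell differed less. Of the mitochondrial and ketogenic list, 3 genes passed the filter, Acat1 and Acat3 among them. Their median was -0.19, with none at least 2-fold lower. Acat1, the mitochondrial thiolase, had 14.6 and 16.8 FPKM, a ratio of 0.868 (0.797 to 0.944). Acat3 stands in that list as the paralog of Acat2.

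The sterol sensing list holds SREBP genes, their escorts and proteases, and classical targets. It had 14 of 15 genes past the filter, 10 of them lower, against 49.1% of all genes. None was at least 2-fold lower on the log2(FPKM + 1) scale, and the median was -0.30. The lowest was Insig1, which retains the SREBP complex in the endoplasmic reticulum and is itself an SREBP target, at 16.4 against 30.8 FPKM (log2 difference -0.87). Srebf2, which encodes SREBP-2, had 7.40 against 9.30 FPKM, a ratio of 0.796 (0.732 to 0.867). Scap, the escort protein, had 1.70 and 1.82 FPKM, a ratio of 0.934 (0.780 to 1.12).

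Genes that use the isoprenoid products outside sterols did not share the difference of the enzymes. Of 11 genes of protein prenylation past the filter 5 were lower and 6 higher, with a median of 0.07. Of all genes, 49.1% were lower. Fnta, a subunit shared by the enzymes that attach farnesyl and geranylgeranyl groups to CAAX proteins, was the lowest, at 12.7 against 17.6 FPKM (log2 difference -0.44). Rabggtb, the catalytic subunit of the enzyme that attaches geranylgeranyl groups to Rab proteins, was higher, at 30.7 against 21.8 FPKM (ratio 1.41, 1.30 to 1.53), and the Rab escort gene Chml had 2.15 against 1.11 FPKM (ratio 1.94, 1.58 to 2.40). Of the 4 dolichol genes past the filter 1 was lower, Dolk, the dolichol kinase, at 2.32 against 3.55 FPKM, and their median was 0.04. The 5 genes of ubiquinone and heme A had a median of 0.05, with 2 lower and 3 higher. Trit1, which puts an isopentenyl group on transfer RNAs, had 7.18 against 5.14 FPKM (ratio 1.40, 1.16 to 1.69). No gene of these lists was at least 2-fold different in either direction, beyond the 4 enzymes from squalene to cholesterol.

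**Figure D5:**
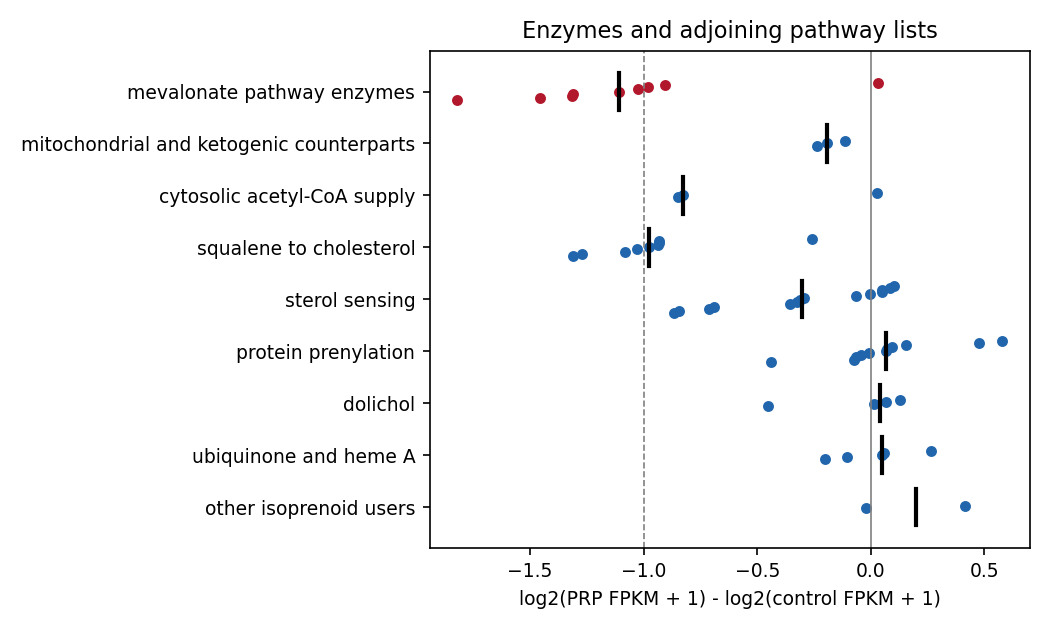
Difference of log2(FPKM + 1), PRP minus control, for each gene past the filter in the mevalonate list (red) and in 8 adjoining lists (blue). Each point is a gene, the vertical bar is the list's median, and the lines mark 0 (solid) and 2-fold lower (dashed). The mevalonate, acetyl-CoA supply and squalene to cholesterol lists lie to the left, with medians of -1.11, -0.83 and -0.98, and the lists of isoprenoid use lie around 0.

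The study examined exosomal miRNAs, let-7f and miR-16 among them, so their seeds were looked up in the 3′ untranslated regions of the enzymes. The mature mouse sequences from RefSeq are given with bases 2 to 8, the seed, in capitals.
mmu-let-7f-5p: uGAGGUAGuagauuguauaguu
mmu-miR-16-5p: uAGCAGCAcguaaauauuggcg

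A match to the let-7f seed (CTACCTC on the transcript) was in the longest 3′ untranslated region of 0 of the 9 enzymes, against 9.85% of the 10287 genes past the filter that have one. A match to the miR-16 seed (TGCTGCT) was in 1 of the 9, against 24.6%, and that gene was Ggps1, the one without a lower level. The regions ran from 55 bases (Fdps) to 3035 bases (Ggps1), against a median of 1154 bases over those genes. The absence of a match says only that these letters are not in the annotated region.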

How the data were processed

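Per the labels and the methods of the study, RNA was extracted with TRIzol, stranded mRNA libraries were built from it, and reads were trimmed (fastp 0.23.4), aligned to mm10 (STAR 2.5.3a) and counted per gene with featureCounts. The authors deposited FPKM for 44291 genes in each of the 2 libraries. The annotation release, the strand setting of the counting and the step from counts to FPKM are not given in the sources used here.

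From these values, log2(FPKM + 1) differences were taken, PRP minus control, over genes whose mean FPKM was 1 or more. Library depths of 40120843 and 34139741 reads were worked out from GENCODE M21 exon lengths, with which 21322 of 22777 genes (93.6%) had whole read numbers in both libraries, within 0.001. Intervals count 2 reads as 1 fragment, and the steps were tested on simulated data. Since 1 library per group allows no replicate test, a gene was called past 2-fold. Gene copies were sought with blastn 2.17.0 (at least 90% identity over 200 bases), and other steps used Python 3.11.15, pandas 2.3.3 and SciPy 1.17.1.

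The genes named are the 9 enzymes, their neighbours and copies, and the lowest, highest or best known genes of each list. Some list genes are counted but not reported here by name. Members and lists were chosen with earlier results of these data known. Alternatives were other pseudocounts, filters, scalings and thresholds.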

Additional observations from a re-analysis of the deposited data

How the results depend on the processing

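The 8 enzymes with lower levels stayed lower, and Ggps1 stayed within 0.001 to 0.034 on the log2 scale, under every alternative tried. The alternatives that sum or leave out genes with shared sequence were chosen after seeing the data. The median of the 9 was between -1.18 and -0.91, and -0.91 was its value with a pseudocount of 5. The number at least 2-fold lower was 6, with 3 at a pseudocount of 5, 0 at a 4-fold threshold, 5 with the reads of Acat3 added to Acat2 and those of Idi1-ps1 to Idi1 (no other copies were added), and 8 at a pseudocount of 0.1, at a 1.5-fold threshold or after either rescaling. Adding the reads of Acat3 moved Acat2 from -1.31 to -0.71. Over the whole table, the number of lower genes was 268 (pseudocount of 0.1), 29 (pseudocount of 5), 56 (mean FPKM of at least 5, where fewer genes are tested), 216 (rescaled to a common sum), 247 (rescaled without mitochondrial and top genes), 612 (1.5-fold) and 3 (4-fold), against 111. Rescaling multiplies all values, so a pseudocount of 1 weighs less. With a pseudocount of 5 the median of acetyl-CoA supply was -0.68 and that of squalene to cholesterol -0.80, the latter being -1.11 after rescaling without mitochondrial and top genes. Other list medians moved by less than the counting interval of their middle gene. No paired analysis was possible because 1 library stands for each group. Depth limits Acat2 and Mvk most, with 241 and 239 fragments in the PRP library.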

Other observations

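Among genes whose mean FPKM was at least that of the least abundant enzyme, 38 of 5785 had a log2 difference at or below the median of the 9 enzymes. The 38 include Acat2, Hmgcs1, Pmvk, Mvd and Idi1, which are there by the definition of a median. They also include Idi1-ps1 and Gm48342, which share sequence with Idi1 and Hmgcs1. Cyp51 and Nsdhl of the squalene to cholesterol list, with log2 differences of -1.31 and -1.27, are among the 38 too. Within this abundance limit, and leaving out the genes of the pathway lists, the genes nearest to that median of -1.11 were Flot1, a scaffold protein of cholesterol-rich membrane domains, with 13.9 FPKM with PRP against 31.0 FPKM in the control, and Pcyt2, an enzyme of phosphatidylethanolamine synthesis, with 6.06 against 14.4 FPKM. Next came Mgp, matrix Gla protein, with 140.3 against 299.7 FPKM, and the unnamed genes Gm56421 and Gm56420, with log2 differences of -1.15 and -1.07. Likeness here is the distance between log2 differences in 1 pair of libraries, which many genes can share.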
